A study of Homo sapiens with 26 samples.

Results

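The genes described here encode 48 factors of ribosome biogenesis, the nucleolar pathway that makes the small and large ribosomal subunits, and they were followed through the response of MCF10A mammary epithelial cells to EGF, to the synthetic glucocorticoid dexamethasone (DEX) and to EGF+DEX. A probeset of the exon array was assigned to a member when its gene symbol on the platform was exactly that of the member. On this rule 47 of the 48 listed genes had a probeset, NOP58 being the exception, and 46 could be tested among 16600 genes in all. PPAN was left out because its 1 probeset did not rise above the background. The 46 tested members drew on 1073 probesets.

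The 26 arrays measured total RNA from MCF10A cells, an immortalised and non-transformed line of human mammary epithelium. EGF (10 ng per ml) was given for 20, 40, 60, 120 or 240 min on 8 arrays, EGF (10 ng per ml) together with DEX (100 nM) for the same times on 8 arrays, and DEX (100 nM) for the same times on 8 arrays, while 2 arrays came from untreated cells at 0 min. There were 2 arrays per treatment at each of 20, 40 and 60 min, and a single one at each of 120 and 240 min. All cells had been grown in medium holding EGF, hydrocortisone, insulin and cholera toxin and were starved overnight before stimulation, and no untreated array was taken at a later time. The labels number the replicates but do not say whether they came from separate cultures, so p-values measure the spread between arrays, which may be technical. Since an array reads a whole culture, less RNA per cell and fewer expressing cells cannot be told apart.

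Ribosome biogenesis starts with transcription of ribosomal DNA by RNA polymerase I in the nucleolus. The precursor is modified at sites chosen by small nucleolar RNAs, in particles of the box C/D class (methylation) and the box H/ACA class (pseudouridylation), and is folded and cleaved within the small subunit processome before the subunits mature separately and leave the nucleus. The pathway is known to follow growth signals: mitogens acting through ERK and MYC raise both RNA polymerase I activity and the transcription of genes for assembly factors, and many of those genes carry E-boxes, the sequences that MYC and its partner MAX bind.

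The treatments were checked with 4 genes that are not members. FOS and EGR1, immediate early genes of the EGF response, reached at least 9.15 and 11.66 on the log2 scale on both EGF arrays at 20 min, against at most 6.59 and 9.69 on the untreated arrays. With DEX alone at 20 min both genes were also above the untreated arrays, FOS at 8.03 and 8.16 and EGR1 at 10.30 and 10.04. TSC22D3 and FKBP5, targets of the glucocorticoid receptor, had values of 9.30 and 11.21 with DEX at 240 min, against at most 7.54 and 10.10 in untreated cells. The basal markers KRT5, KRT14, KRT17, TP63, ITGB4 and LAMB3 all lay at or above the 96.1 percentile of the genes tested. Luminal markers were spread, with KRT8 at the 93.4, KRT18 at the 93.1, GATA3 at the 71.4, FOXA1 at the 51.9 and ESR1 at the 12.4 percentile. The highest fibroblast marker, DCN, lay at the 80.2 percentile and the highest leukocyte marker, CD14, at the 62.0 percentile. Of markers of other cell types, the 3 measured for leukocytes lay between 5.40 (PTPRC) and 7.17 (CD14), the 3 for endothelium between 5.27 (CDH5) and 6.09 (PECAM1) and the 5 for fibroblasts between 5.89 (COL3A1) and 8.01 (DCN), all above the background of 4.65, and their part in the results was not tested. The arrays held between 61.1% and 62.7% of probesets above that background. MYC itself is not reported here, as its probesets carry more than 1 symbol.

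As a group the 46 members moved apart under EGF and DEX. Their median difference from untreated cells, on the log2 scale, was 0.17, 0.22, 0.31, 0.35 and 0.51 with EGF at 20, 40, 60, 120 and 240 min. With EGF+DEX it was -0.02, -0.22, 0.21, 0.20 and 0.35 at those times, and with DEX alone 0.08, -0.15, -0.11, -0.15 and -0.33. The members thus stood highest at 240 min with EGF and lowest at 240 min with DEX, while EGF+DEX cells dipped at 40 min and lay above untreated cells from 60 min. The median over all genes tested stayed between -0.08 and 0.00 throughout. Both EGF arrays lay above both DEX arrays at 40 and at 60 min in the members' median, whereas at 20 min the ranges overlapped. The members also shifted together between arrays of the same group. Their median of replicate 2 minus replicate 1 ran from -0.15 (EGF at 40 min) to 0.20 (EGF+DEX at 60 min). Counts of members above or below 0 are therefore not counts of separate observations.

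**Figure D1:**
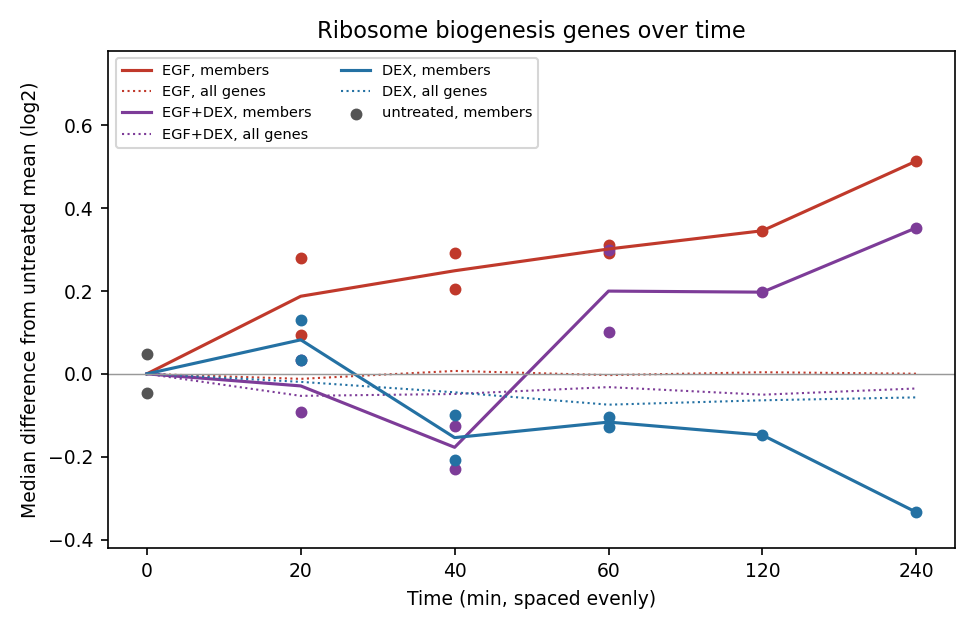
Median difference of the 46 members from the mean of the untreated arrays (y axis, log2) against time in min (x axis, evenly spaced). Points are single arrays, solid lines join their means, and dotted lines give the same for all 16600 genes. The members reach 0.51 with EGF, 0.35 with EGF+DEX and -0.33 with DEX at 240 min, and the EGF+DEX line lies below 0 at 40 min.

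The time of the highest or lowest value differed between treatments. With EGF, 31 of 46 members had their highest group mean at 240 min, against 26.3% of all genes tested, and the same count held with EGF+DEX, against 30.0% of all genes. With DEX, 31 members had their lowest mean at 240 min (27.9% of all genes) and 37 had their highest at 20 min (23.3% of all genes). In EGF+DEX cells 40 of 46 members were lowest at 40 min, against 22.3% of all genes. These counts describe group means, of which those at 120 and 240 min are single arrays.

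The values on individual arrays show how far this held for single genes. In 9 members every one of the 8 EGF arrays lay above every one of the 8 DEX arrays, whatever the time. They were POLR1C, NCL, LYAR, WDR43, WDR3, UTP15, IMP4, GNL3 and URB2. Among all genes tested, 1.77% showed this order. No member had every EGF array above every EGF+DEX array, an order shown by 0.886% of all genes.

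LYAR, a nucleolar zinc finger protein linked to cell growth, ranged from 6.99 over a median of 7.32 to 7.73 on the EGF arrays, against 6.22, 6.66 and 6.88 on the DEX arrays. The gap between the lowest EGF array and the highest DEX array was small beside the spread within each treatment, which held all 5 times. WDR43, a WD repeat protein of the small subunit processome, ranged from 8.20 over 8.31 to 8.72 with EGF and from 7.64 over 7.84 to 7.90 with DEX. IMP4, which helps the U3 small nucleolar RNA pair with the precursor, ranged from 8.48 over 8.67 to 8.90 with EGF and from 8.27 over 8.37 to 8.47 with DEX. GNL3 (nucleostemin), a nucleolar GTP-binding protein, ranged from 8.22 over 8.41 to 8.81 with EGF and from 7.78 over 8.002 to 8.21 with DEX. For IMP4 and GNL3 the nearest arrays of the treatments all but touched.

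These 4 were also the members of the 9 with an E-box in a promoter window. Of the 9, 8 had a window, and POLR1C, NCL, WDR3 and UTP15 had none with an E-box. The share of 4 in 8 is near that among all members with a window (18 of 39, 46.2%). The array ranges above are of these 4 only, and a link of the E-box to the order of the arrays was not tested. Windows of the 4 are printed because the E-box was more frequent among the members than among all genes. Sequences are those of RefSeq on GRCh38.p14, from 250 bases before the start site to 50 after it, read 5′ to 3′ on the strand of the gene, with CACGTG in capitals. The first base of the E-box stands at position -64 from the start site in LYAR, 3 in WDR43, -203 in IMP4 (the first of its 2) and 6 in GNL3. Positions refer to the start site of the printed window. LYAR, IMP4 and GNL3 each have another start site whose window holds no E-box. In LYAR and GNL3 that other site is the one at the annotated start of the gene.
LYAR (chr4:4289972-4290271, minus strand): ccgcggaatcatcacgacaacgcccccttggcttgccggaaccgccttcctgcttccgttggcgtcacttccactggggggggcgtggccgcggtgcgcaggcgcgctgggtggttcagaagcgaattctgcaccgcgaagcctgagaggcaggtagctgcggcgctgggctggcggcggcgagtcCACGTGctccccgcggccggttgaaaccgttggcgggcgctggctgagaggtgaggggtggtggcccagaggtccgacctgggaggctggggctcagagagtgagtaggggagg
WDR43 (chr2:28894417-28894716, plus strand): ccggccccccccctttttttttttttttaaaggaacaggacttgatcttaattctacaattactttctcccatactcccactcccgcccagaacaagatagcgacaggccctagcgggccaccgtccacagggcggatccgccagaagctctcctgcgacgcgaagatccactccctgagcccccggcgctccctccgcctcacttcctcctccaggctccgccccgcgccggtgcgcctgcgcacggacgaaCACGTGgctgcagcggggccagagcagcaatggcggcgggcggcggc
IMP4 (chr2:130342647-130342946, plus strand): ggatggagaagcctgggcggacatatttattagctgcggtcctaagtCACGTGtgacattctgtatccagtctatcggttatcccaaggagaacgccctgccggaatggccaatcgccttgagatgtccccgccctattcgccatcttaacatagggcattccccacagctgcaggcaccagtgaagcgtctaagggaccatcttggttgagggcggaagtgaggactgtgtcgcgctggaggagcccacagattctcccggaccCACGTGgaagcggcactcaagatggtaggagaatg
GNL3 (chr3:52685782-52686081, plus strand): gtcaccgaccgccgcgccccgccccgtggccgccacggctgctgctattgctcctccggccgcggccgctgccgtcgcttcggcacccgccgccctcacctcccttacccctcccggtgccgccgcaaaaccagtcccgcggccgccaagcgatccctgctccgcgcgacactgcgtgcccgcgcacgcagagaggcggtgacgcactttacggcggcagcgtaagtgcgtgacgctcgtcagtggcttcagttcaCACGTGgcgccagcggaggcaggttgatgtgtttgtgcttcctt

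Promoter windows were found for 39 of the 48 members. The E-box CACGTG, which reads the same on both strands, occurred in 18 of them (46.2%), against 8.77% of the 27305 genes with a window. A gene with several start sites was counted once if any window held the motif. CCGGAAG, the core bound by ETS factors, occurred in 41% of the members against 12.2% of all genes and the GC box GGGCGG in 76.9% against 48.3%. Of the E-box variants, CACGCG was found in 30.8% of the members against 13.5% of all genes and CATGTG in 5.13% against 13.4%. TGACTCA (AP-1) occurred in 0 of the 39 windows, against 6.05% of all genes, and TGACGTCA (CRE) in 1, that of DDX10. AGAACA, the hexamer of glucocorticoid response elements, occurred in 17.9% of the members and 17.5% of all genes. All motifs were searched on both strands, none of them contains another, and a match is a description of the sequence only. The median late difference between EGF and DEX was 0.68 over 18 tested members with the E-box and 0.61 over 20 without it. For EGF late against untreated cells these medians were 0.41 and 0.34, and for EGF+DEX against DEX late 0.58 and 0.50. For EGF+DEX against EGF early they were -0.26 and -0.27. Whether members with and without CACGTG differ in response was not tested.

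EGF was set against DEX at the late times to ask how far the ligands pulled the pathway apart. The difference does not use the untreated arrays, while its SE comes from the fit of all groups. The late value is the mean of 120 and 240 min. Of the 46 members, 35 were higher with EGF than with DEX and none was lower at an adjusted p under 0.05, where 10.3% of all genes tested were higher. All 46 differences were above 0, with a median of 0.66 and a range from 0.07 to 1.18, while the median over all genes was 0.04. The adjusted p of the 35 ran from 1.7e-05 to 0.0428 (limma). At the level of single probesets, 92.8% of those of the members were brighter with EGF than with DEX at these times, against 56.6% over all genes.

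Among factors of RNA polymerase I transcription, 6 of 7 were higher with EGF. DDX21, a helicase that links RNA polymerase I transcription to processing of the precursor, had values of 9.06 and 9.22 with EGF at 120 and 240 min, against 8.30 and 8.03 with DEX. The EGF arrays lay above both untreated arrays (8.46 and 8.35) and the DEX arrays below them, and the difference between EGF and DEX was 0.98 ± 0.11 (SE; adjusted p = 1.7e-05). POLR1B, the second largest subunit of the polymerase, stood at 8.02 and 8.29 with EGF against 7.64 and 7.33 with DEX, a difference of 0.67 ± 0.15 (adjusted p = 0.00509). RRN3, the initiation factor through which growth signals act on the polymerase, differed by 0.57 ± 0.17 (adjusted p = 0.0329), and the largest subunit POLR1A by 0.37 ± 0.13 without passing the test (adjusted p = 0.0802). POLR1A thus had the smallest late EGF difference of its group.

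In the snoRNP groups some subunits passed the test and others did not, and no test compared the subunits with each other. NOP56, a core protein of the box C/D particle, had 9.11 and 9.28 with EGF at 120 and 240 min, against 8.09 and 8.11 with DEX. Both untreated arrays read 8.51, between them, and the difference was 1.09 ± 0.18 (adjusted p = 0.000461). FBL (fibrillarin), the methyltransferase of the same particle, had 10.12 and 10.05 with EGF against 9.73 and 9.99 with DEX, and its difference of 0.22 ± 0.19 did not pass (adjusted p = 0.495). Of the box H/ACA proteins, DKC1 (dyskerin), the pseudouridine synthase, had 7.9998 and 8.42 with EGF against 7.39 and 7.12 with DEX, a difference of 0.95 ± 0.13 (adjusted p = 6.67e-05). NOP10 passed as well, with 0.68 ± 0.19 (adjusted p = 0.0238). GAR1, at 0.36 ± 0.14 (adjusted p = 0.0949), and NHP2 did not. NHP2 overlapped between treatments, with 7.75 and 8.10 for EGF and 7.95 and 7.70 for DEX.

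Of the nucleolar phosphoproteins and chaperones, LYAR and NOLC1 passed. LYAR had 7.31 and 7.73 with EGF at 120 and 240 min, against 6.68 and 6.42 with DEX, and differed by 0.97 ± 0.19 (adjusted p = 0.00222). NOLC1 (Nopp140), a chaperone of snoRNPs, differed by 0.83 ± 0.15 (adjusted p = 0.00151). The abundant multifunctional proteins NCL (nucleolin) and NPM1 (nucleophosmin) did not pass. NCL differed by 0.42 ± 0.15 (adjusted p = 0.0636), and it was among the members with every EGF array above every DEX array. NPM1, at 10.48 and 10.81 with EGF against 10.52 and 10.64 with DEX, showed the smallest difference of all members (0.07 ± 0.14, adjusted p = 0.796). The annotation lists 50 pseudogenes of NPM1, more than for any other member, and their signal on its probesets was not tested.

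**Figure D2:**
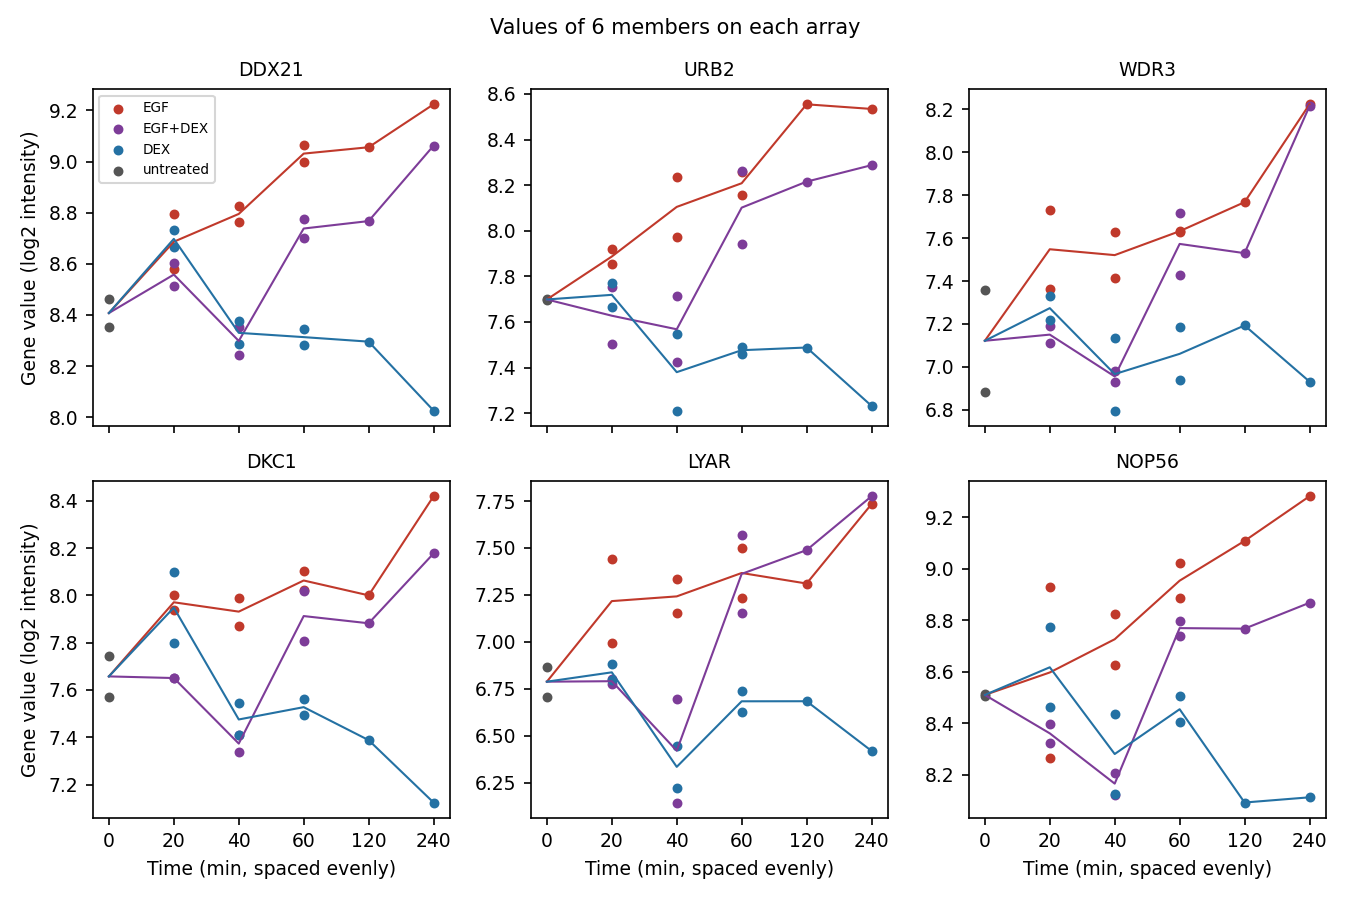
Values of DDX21, URB2, WDR3, DKC1, LYAR and NOP56 on each of the 26 arrays (y axis, log2 intensity per gene) against time in min (x axis, evenly spaced). Points are arrays and lines join group means. In each gene the EGF and EGF+DEX points at 240 min lie above the untreated arrays and the DEX point below them, except that the DEX point of WDR3 (6.93) lies between its untreated arrays.

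In the small subunit processome 6 of 11 members were higher with EGF than with DEX. WDR3, the human counterpart of yeast Utp12, had 7.77 and 8.22 with EGF at 120 and 240 min, against 7.19 and 6.93 with DEX. Its untreated arrays were far apart (7.36 and 6.88), and the difference between EGF and DEX was 0.93 ± 0.17 (adjusted p = 0.00152). UTP20 differed by 0.89 ± 0.14 and the helicase DDX10 by 0.88 ± 0.13 (adjusted p = 0.000512 and 0.000274). NOP14, WDR75, IMP4, BMS1 and DDX52 did not pass, with differences between 0.28 and 0.50. NOP14 had 8.71 and 8.87 with EGF against 8.55 and 8.38 with DEX, and BMS1 has 21 annotated pseudogenes.

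All 4 factors of late small subunit assembly passed the test. BYSL (bystin) had 7.44 and 7.52 with EGF at 120 and 240 min, against 6.74 and 6.51 with DEX, a difference of 0.86 ± 0.16 (adjusted p = 0.00192). TSR1, a GTPase-like factor of the pre-40S particle, had 7.70 and 7.72 with EGF against 7.03 and 6.83 with DEX (0.78 ± 0.14, adjusted p = 0.00125). LTV1, which accompanies the pre-40S particle out of the nucleus, differed by 0.86 ± 0.22 and RRP12, known from yeast as a factor of export of pre-ribosomes, by 0.70 ± 0.13. In all 4 the EGF arrays lay above both DEX arrays.

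The large subunit factors were also called without exception, namely the 3 proteins of the PeBoW complex (PES1, BOP1 and WDR12), which processes the precursor of the large subunit rRNAs, and 11 of 11 further assembly factors. URB2, a nucleolar protein whose yeast counterpart acts in large subunit assembly, had 8.55 and 8.53 with EGF at 120 and 240 min, against 7.49 and 7.23 with DEX. The untreated arrays both read 7.70, and the difference of 1.18 ± 0.15 (2.27-fold, adjusted p = 5.06e-05) was the largest of all members. NIP7 had 9.02 and 9.10 with EGF against 8.26 and 7.95 with DEX (0.96 ± 0.18, adjusted p = 0.00192). PES1 had 7.81 and 7.88 with EGF against 7.31 and 7.36 with DEX (0.51 ± 0.12), and WDR12 7.81 and 8.35 against 7.49 and 7.29 (0.69 ± 0.15). At the low end WDR74 had 9.54 and 9.72 with EGF against 9.15 and 9.05 with DEX, a difference of 0.53 ± 0.17 (adjusted p = 0.0423).

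These calls lean on the single arrays at 240 min. Without the EGF 240 min array, or without the DEX 240 min array, 5 of 46 members were called (URB2, NOP56, DDX10, DDX21 and MYBBP1A), at 120 min alone, where 43 of 46 differences were above 0 with a median of 0.45 and 2.23% of all genes were higher. A comparison free of single arrays was therefore added after the data had been seen, using the mean of 20, 40 and 60 min with 2 arrays each. There 21 of 46 members were higher with EGF than with DEX and none was lower, against 7.15% of all genes, and all 46 differences were above 0 (median 0.30, all genes 0.03). LYAR (0.66 ± 0.11, adjusted p = 0.00153), WDR43 (0.55 ± 0.09, 0.00156) and URB2 (0.54 ± 0.09, 0.00129) had the largest differences. Of these 21 calls, 19 were shared with the 35 late ones, that is 19 of 21 early and 19 of 35 late, and the other 2 were NCL and WDR75. The early count was 13 without EGF 20 min replicate 2 or DEX 60 min replicate 2 and 12 without DEX 20 min replicate 1.

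By time, the median difference between EGF and DEX was larger at 40 than at 20 min, a change that was not tested. Some members were apart at 20 min already, such as WDR43 (8.32 and 8.29 with EGF against 7.88 and 7.85 with DEX). Others overlapped at that time, such as DKC1. At 20 min the median difference was 0.13 with 33 of 46 above 0, and at 40 min it was 0.41 with all 46 above 0 and 2 called, LYAR and URB2 (0.554% of all genes were higher). At 60 min it was 0.44, with 12 called against 4.96% of all genes. UTP20, whose yeast counterpart is a processome component, read 7.26 and 7.33 with EGF against 6.52 on both DEX arrays at that time, a difference of 0.77 ± 0.14 (adjusted p = 0.00558). At 240 min the median was 0.85 and 26 members were called, against 5.02% of all genes.

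**Figure D3:**
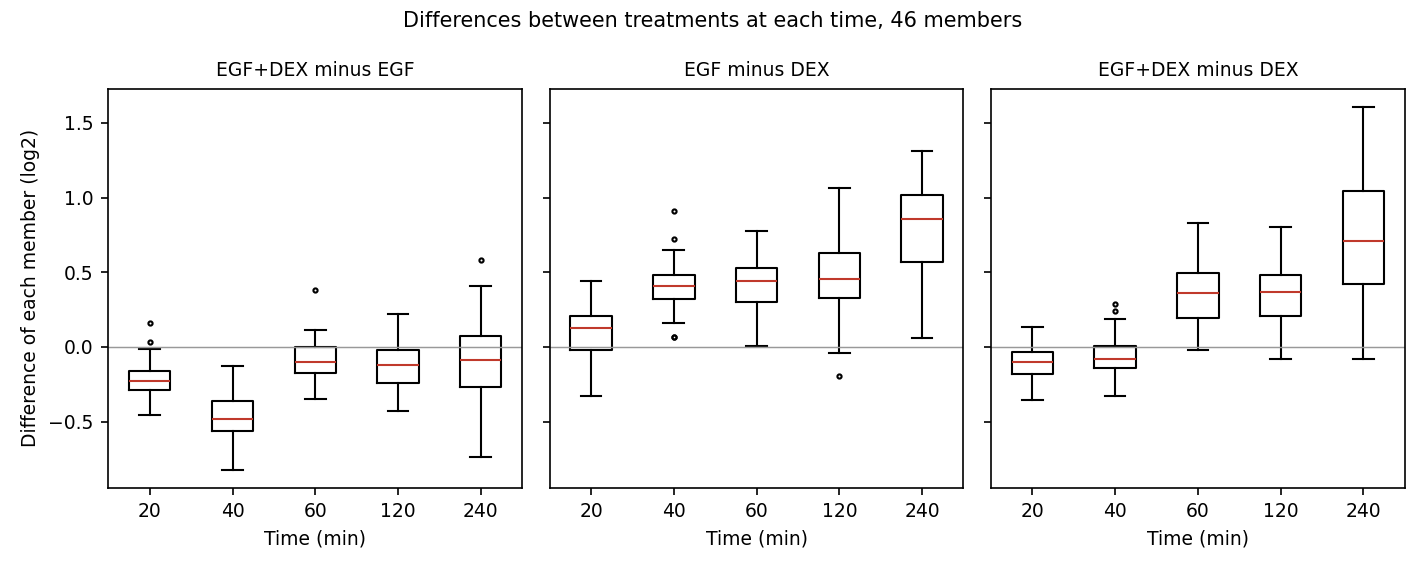
Differences between treatments for each of the 46 members (y axis, log2) at each time in min (x axis): EGF+DEX minus EGF, EGF minus DEX and EGF+DEX minus DEX. Boxes span the quartiles, red lines are medians, whiskers reach the last member within 1.5 box lengths and circles are members beyond. The median of EGF minus DEX is 0.13 at 20 min and 0.85 at 240 min, and that of EGF+DEX minus EGF is lowest at 40 min (-0.48).

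Set against untreated cells, fewer members passed, and the change with EGF and the change with DEX share the same 2 untreated arrays. With EGF, 45 of 46 members were above untreated cells at the late times (median 0.40, all genes 0.00) and 6 rose, against 1.03% of all genes. They were WDR3 (0.87 ± 0.17, adjusted p = 0.0172), URB2 (0.85 ± 0.15, 0.00909), DDX21 (0.73 ± 0.11, 0.00348), DDX10 (0.68 ± 0.13, 0.0166), DKC1 (0.55 ± 0.13, 0.0371) and RRP1B (0.55 ± 0.13, 0.0472). DDX10 is a helicase that releases small nucleolar RNA from the precursor in yeast, and RRP1B is the counterpart of a yeast large subunit factor. A further 25 of the 46 had an unadjusted p under 0.05 without passing, so that 31 did in all (13.5% of all genes). No member fell. The count was 3 without untreated replicate 1, 0 without untreated replicate 2, 3 without the EGF 120 min array and 2 without the EGF 240 min array.

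With DEX alone, 45 of 46 members lay below untreated cells at the late times (median -0.23, all genes -0.06), but 0 were called, where 5.11% of all genes were called in either direction (limma). An unadjusted p under 0.05 was reached by 13 members (19.9% of all genes). NOLC1 had the largest difference, with 7.94 and 7.76 with DEX at 120 and 240 min against 8.32 and 8.31 in untreated cells (-0.46 ± 0.15, adjusted p = 0.0961). DKC1 had 7.39 and 7.12 against 7.74 and 7.57 (-0.40 ± 0.13, adjusted p = 0.0785). In both genes the DEX arrays lay below the untreated ones, by less than the test required.

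Tested over all 5 times at once, 1 member was called with EGF alone and 1 with DEX alone. With EGF it was DDX21 (F-test, adjusted p = 0.0200; 0.59% of all genes rose), which was 0.82 ± 0.14 above untreated cells at 240 min. With DEX it was DKC1 (adjusted p = 0.0349; 2.07% of all genes fell), whose largest difference was -0.53 ± 0.15 at 240 min. The 1 member called with DEX is 2.17% of the 46, near the share among all genes, so it does not set the members apart. With DEX at 20 min DKC1 had read 7.80 and 8.10, above both untreated arrays, and from 40 min on its DEX arrays lay below both. The DKC1 call was lost without DEX 240 min replicate 1, where its largest difference was 0.29, without untreated replicate 1, and without DEX 20 min replicate 2 or either DEX 60 min array, and also with the replicate number as a block (-0.51, adjusted p = 0.0514) and with a minimum of 1.5-fold. The DDX21 call was lost without either untreated array, and 2 members were called without EGF 20 min replicate 2. With EGF+DEX the same test called 16 members, against 5.25% of all genes, with adjusted p from 0.00532 (LYAR) to 0.0383 (TSR1). In 15 of them the largest difference lay above untreated cells, led by UTP15 (1.11 ± 0.22), WDR3 (1.09 ± 0.21) and LYAR (0.99 ± 0.23). POLR1B was the exception, at -0.50 ± 0.15, and with the mean of probesets its largest difference was 0.49. The count was 2 without the EGF+DEX 240 min array and 7 without EGF+DEX 40 min replicate 2. Across both ligands 44 of 46 members were above untreated cells with EGF and below them with DEX at the late times, and in 35 the EGF difference was the larger in size.

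**Figure D4:**
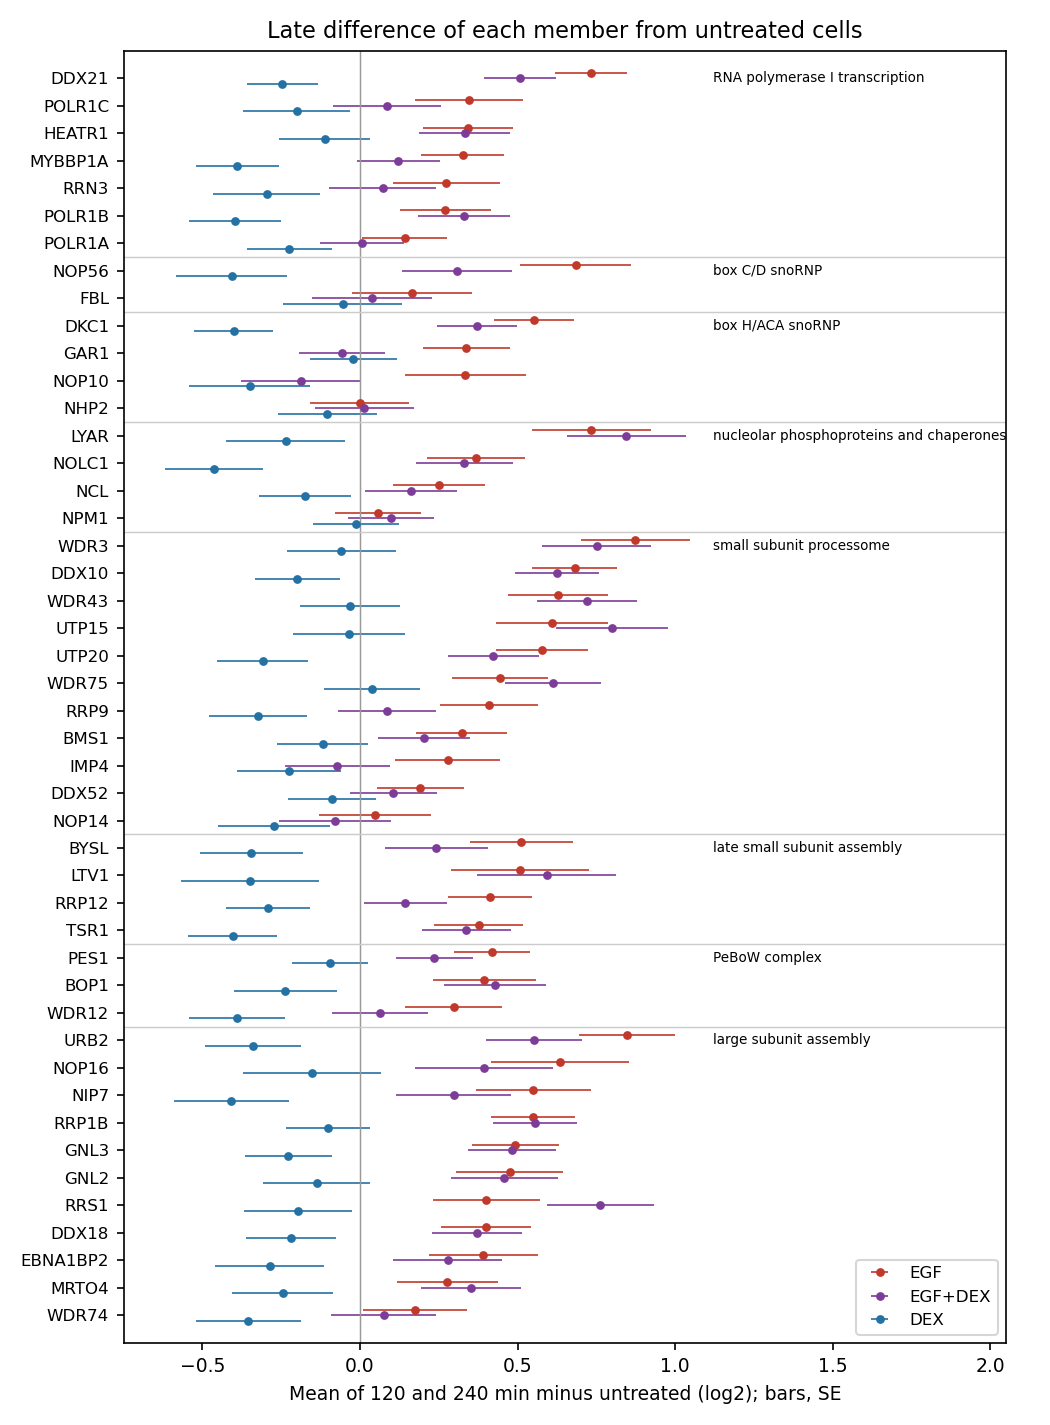
Late difference of each of the 46 members from untreated cells (x axis, log2, mean of 120 and 240 min minus untreated) in EGF, EGF+DEX and DEX cells, by role. Points are estimates from the fit and bars are SE. With EGF 45 points lie above 0 and with DEX 45 lie below 0, and EGF+DEX points lie mostly near the EGF ones.

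When DEX was added to EGF the question was how the EGF response of the members would differ with the steroid present. At 40 min all 46 members were lower in EGF+DEX cells than in EGF cells (median -0.48, all genes -0.05), and 4 of them passed, against 1.25% of all genes. LYAR had 6.70 and 6.14 with EGF+DEX at 40 min, against 7.33 and 7.15 with EGF, a difference of -0.82 ± 0.19 (adjusted p = 0.0400). POLR1B had 7.47 and 7.31 against 8.002 and 7.98 with EGF (-0.60 ± 0.15), DKC1 7.41 and 7.34 against 7.99 and 7.87 (-0.56 ± 0.13), and DDX21 8.35 and 8.24 against 8.76 and 8.83 (-0.50 ± 0.11). In LYAR, DKC1 and DDX21 the EGF+DEX arrays at 40 min lay close to the DEX arrays of that time. The latter read 6.22 and 6.45 for LYAR, 7.41 and 7.54 for DKC1 and 8.38 and 8.29 for DDX21. In POLR1B both EGF+DEX arrays lay below both DEX arrays, which read 7.55 and 7.68.

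Over the mean of 20, 40 and 60 min, 21 of 46 members had lower values in EGF+DEX cells than in EGF cells, against 9.78% of all genes, and 45 differences were below 0 (median -0.26, all genes -0.05). POLR1C, a subunit shared by RNA polymerases I and III, led with -0.47 ± 0.10 (adjusted p = 0.0112). At 20, 40 and 60 min it had 7.12 and 6.92, 7.03 and 6.75, and 7.24 and 7.005 with EGF+DEX, against 7.23 and 7.72, 7.68 and 7.31, and 7.50 and 7.44 with EGF. At each of these times its EGF+DEX arrays were below its EGF arrays. LYAR (-0.42 ± 0.11), UTP20 (-0.40 ± 0.08), NIP7 (-0.37 ± 0.11) and BYSL (-0.36 ± 0.09) followed. The differences were small, each under 1.5-fold, and the count was 4 to 13 without EGF+DEX 20 min replicate 2 (4), EGF+DEX 60 min replicate 1 (5), EGF 20 min replicate 2 or EGF+DEX 40 min replicate 2 (6 each), EGF 60 min replicate 1 (7), EGF 40 min replicate 1 (8) or EGF 40 min replicate 2 (13).

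Over all 5 times 16 members had lower values in EGF+DEX cells than in EGF cells, against 14.1% of all genes. POLR1C (-0.39 ± 0.09, adjusted p = 0.0103), NOP10 (-0.36 ± 0.10, 0.0227), NOP56 (-0.35 ± 0.09, 0.0192) and BYSL (-0.32 ± 0.09, 0.0195) had the largest differences. The count was 9 without EGF+DEX 20 min replicate 2. At the late times 0 of 46 were called, against 2.8% of all genes in either direction. An unadjusted p under 0.05 was reached by 5 members and 15.2% of all genes. The median was -0.12, with 34 of 46 differences below 0, but the median over all genes was also below 0 (-0.05). The SE of a late difference lay between 0.11 and 0.22. NOP10 had the largest, with 9.74 on both EGF+DEX arrays against 10.05 and 10.48 with EGF (-0.52 ± 0.19, adjusted p = 0.189). The early and the late effect of adding DEX were compared directly, and 0 members passed, against 0.608% of all genes. An unadjusted p under 0.05 was reached by 4 members. The difference was nonetheless less negative late than early in 40 of 46 (median of late minus early 0.16, all genes -0.01).

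In the mean of 120 and 240 min most members were higher in EGF+DEX cells than in DEX cells, though none was called at 120 min alone. Of 46 members, 21 were higher with EGF+DEX than with DEX, against 1.88% of all genes, and 45 differences were above 0 (median 0.58, all genes 0.00). LYAR had 7.49 and 7.78 with EGF+DEX at 120 and 240 min, against 6.68 and 6.42 with DEX, a difference of 1.08 ± 0.19 (2.12-fold, adjusted p = 0.00463). RRS1, which brings the 5S particle into the large subunit in yeast, had 7.57 and 7.72 against 6.81 and 6.57 (0.96 ± 0.17, adjusted p = 0.00492). For both genes the EGF+DEX arrays were also above the EGF arrays of the same time, which read 7.31 and 7.73 for LYAR and 7.44 and 7.14 for RRS1. At 240 min the 2 LYAR arrays were nearly level. Late EGF+DEX against EGF called 0 of 46 members, and most members lay the other way.

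LTV1 had 7.43 and 8.22 with EGF+DEX at 120 and 240 min, against 7.16 and 6.61 with DEX (0.94 ± 0.22, adjusted p = 0.0262). URB2 had 8.22 and 8.29 against 7.49 and 7.23 (0.89 ± 0.15, adjusted p = 0.00396). The gap in LTV1 was mainly that at 240 min, whereas URB2 was apart at both times. UTP15 (0.84 ± 0.18), DDX10 (0.82 ± 0.13), WDR3 (0.81 ± 0.17) and NOLC1 (0.79 ± 0.15) were also called. By role, 3 of 7 polymerase I factors, 1 of 2 box C/D and 1 of 4 box H/ACA proteins, 2 of 4 phosphoproteins and chaperones, 5 of 11 processome members, 2 of 4 late small subunit factors, 1 of 3 PeBoW proteins and 6 of 11 large subunit factors were higher. No member was called without the EGF+DEX 240 min array or without the DEX 240 min array, when 120 min alone remained (median 0.37, 44 of 46 above 0, 14 with an unadjusted p under 0.05; 0.0422% of all genes were called in either direction).

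**Figure D5:**
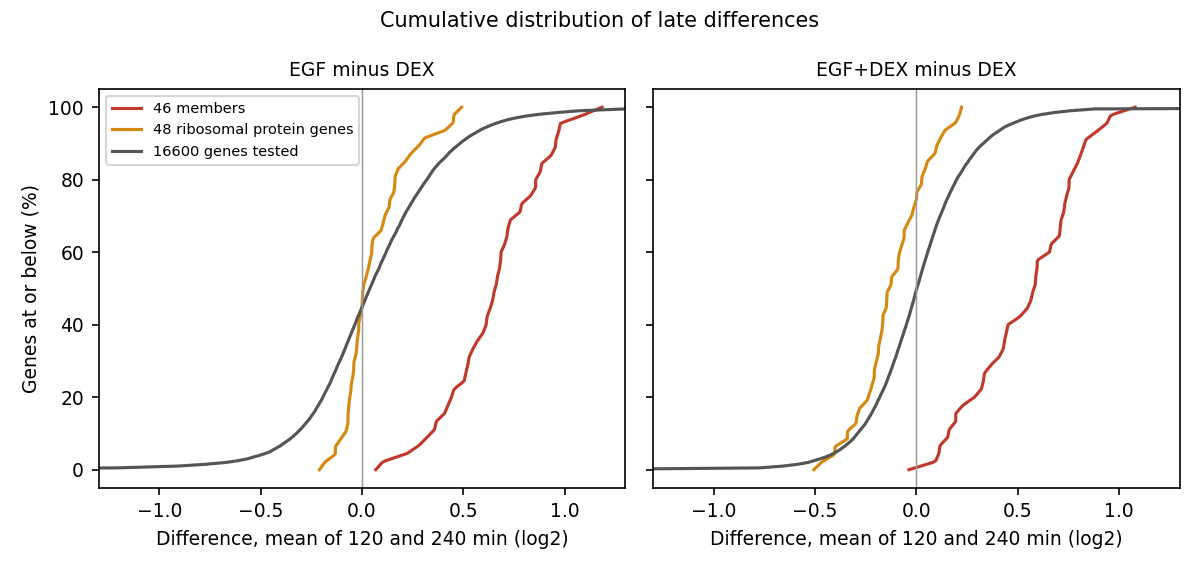
Share of genes (y axis, %) at or below a given late difference (x axis, log2, mean of 120 and 240 min) for the 46 members, 48 cytosolic ribosomal protein genes and all 16600 genes tested, for EGF minus DEX and for EGF+DEX minus DEX. The members have medians of 0.66 and 0.58, the ribosomal protein genes of 0.01 and -0.13, and all genes of 0.04 and 0.00.

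Against untreated cells, 11 members rose in EGF+DEX cells at the late times, where 2.72% of all genes did, and 42 differences were above 0 (median 0.32). LYAR (0.84 ± 0.19, adjusted p = 0.0105), UTP15 (0.80 ± 0.18, 0.0101), RRS1 (0.76 ± 0.17, 0.0104) and WDR3 (0.75 ± 0.17, 0.0124) had the largest. UTP15, a processome protein needed for transcription of ribosomal DNA, had 7.44 and 8.06 with EGF+DEX at 120 and 240 min, against 7.18 and 6.73 in untreated cells. Within EGF+DEX cells 14 members were higher late than early, against 2.23% of all genes, with LYAR (0.77 ± 0.15, adjusted p = 0.00640) and WDR3 (0.65 ± 0.14, adjusted p = 0.0123) at the head. The difference between late and early times was also set against that in DEX cells. It was greater with EGF than with DEX in 3 members, against 1.55% of all genes, and greater with EGF+DEX than with DEX in 3, against 0.259%, with DDX21 and DKC1 in both, and both comparisons share the DEX arrays.

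Genes around the pathway were read from lists of their own. Of 77 measured genes among other ribosome biogenesis factors, 39 were higher with EGF than with DEX at the late times (median 0.47), led by MAK16 (1.00 ± 0.18), UTP3 (0.95 ± 0.19) and the GTPase GTPBP4 (0.90 ± 0.15). Of 11 other RNA polymerase I factors 6 were higher (median 0.53), led by TAF1A (0.89 ± 0.16), a subunit of the selectivity factor, and POLR1E (0.71 ± 0.19). Of 20 RNA polymerase III genes 6 were higher (median 0.23), with POLR3G at 0.97 ± 0.25. Those counts stand against the 10.3% of all genes given above.

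The genes of the cytosolic ribosomal proteins themselves did not move in this way. RPS16 (0.49 ± 0.13, adjusted p = 0.0151) was the 1 of 48 measured that was higher with EGF than with DEX, and the median over the 48 was 0.01. With EGF+DEX against DEX 0 of 48 were called (median -0.13), against 10 of 77 other biogenesis factors (median 0.37). In the MYC network, without MYC, MXD1 (0.66 ± 0.16), MGA (0.61 ± 0.13) and MAX (0.58 ± 0.16) were higher with EGF than with DEX, and MYCL (-0.46 ± 0.14) and MXD4 (-0.45 ± 0.12) lower, of 11 measured. Among all genes 10.3% were higher, and the share that was lower is not given here. Calls of this network went in both directions and are not read as a trait of it. Early, with EGF+DEX against EGF, 32 of the 77 other biogenesis factors, 5 of 11 polymerase I factors and 6 of 48 ribosomal protein genes were lower, where 9.78% of all genes were. UTP6 (-0.51 ± 0.12) and ESF1 (-0.50 ± 0.11), both processing factors, had the largest differences of the first list.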

How the data were processed

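The samples were 26 arrays of MCF10A cells (Affymetrix GeneChip Human Exon 1.0 ST). According to the study's methods the authors used Affymetrix Expression Console. The deposited values are linear intensity values for exon-level probesets, given to 3 significant digits, where a log2 scale had been assumed, and their log2 was taken. How the software summarised, background-corrected and normalized them is not given in the sources used. Array quartiles lay within 0.0971 of each other, and no further normalization was made.

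Of 844005 probesets, 354421 carry 1 gene symbol, 14891 several (left out, MYC included) and 474693 none. Background was the median of the last (4.65), and their 75th percentile (5.97) was the stricter alternative. Probesets with a mean above background were summarised per gene by median polish where a gene had 3 or more, which left 16600 genes. A median polish value is not comparable between genes. Symbols are those of the platform annotation. Other lists were matched through synonyms in the RefSeq annotation of GRCh38.p14.

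A limma model (version 3.58.1, R 4.3.3) with 1 mean per treatment and time (16 groups, 10 residual degrees of freedom) was fitted to all genes with empirical Bayes moderation, so the single arrays at 120 and 240 min are assumed to vary like the other groups. P values were adjusted by the Benjamini-Hochberg method over all 16600 genes, with 0.05 as threshold and no fold minimum. Values after ± are SE of that fit. Any of the members may be named. Array values are given for up to 8 members per comparison with the largest differences among those called and for the extremes of each role group, and of other lists 2 to 4 leading members. The fit was tested on simulated data with independent noise. For EGF late, 47% of 1.5-fold and 97% of 2-fold changes were recovered. For EGF over 5 times these shares were 29% and 92%, and for EGF+DEX against EGF over 5 times both were 100%. A count of 0 at the late times or a low count with EGF or DEX over 5 times therefore leaves room for changes near 1.5-fold.

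The members, lists and tests were chosen with earlier results of these data known. Alternatives were a fold minimum of 1.5, the replicate number as a block, 2 filters on dim probesets, the plain mean in place of median polish, quantile normalization, trend and robust options of limma, and leaving out each array. The comparisons over 20, 40 and 60 min and of late with early, and the alternatives for EGF+DEX over 5 times, were added after the data were seen. Same-numbered arrays did not deviate together (45 pairs of groups, correlations from -0.197 to 0.309), so the numbers were not taken to pair samples. Further software was matrixStats 1.5.0, Python 3.11.15 and matplotlib 3.10.9. The number of arrays limits the precision.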

Additional observations from a re-analysis of the deposited data

Results flagged for a closer look

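The change between early (20, 40 and 60 min) and late (120 and 240 min) times differed between treatments in 4 members, by a limma test of the difference itself. Late minus early was greater with EGF than with DEX for DDX21 (0.59 on the log2 scale, adjusted p = 0.0180), NOP56 (0.78, adjusted p = 0.0434) and DKC1 (0.62, adjusted p = 0.0280), where 1.55% of all genes were called. It was greater with EGF+DEX than with DEX for DDX21 (0.67, adjusted p = 0.0325), DKC1 (0.78, adjusted p = 0.0271) and DDX10 (0.79, adjusted p = 0.0333), where 0.259% of all genes were called. Both comparisons share the DEX arrays, and both were added after the data were seen. No member was called in either without the DEX 240 min array, nor in the first without the EGF 240 min array or in the second without the EGF+DEX 240 min array. In the first the count was also 1 without EGF 40 min replicate 2 and 5 without EGF 20 min replicate 2. In the second it was 0 without DEX 20 min replicate 2, DEX 40 min replicate 2, DEX 60 min replicate 1 or EGF+DEX 60 min replicate 1, 1 without DEX 60 min replicate 2 or EGF+DEX 20 min replicate 2, 5 without either EGF 20 min array, and 7 without DEX 120 min, EGF+DEX 120 min or EGF+DEX 60 min replicate 2. No group held enough arrays for a test of outlying samples.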

How the results depend on the processing

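Counts of members called are given throughout. With a minimum of 1.5-fold the count with DEX over 5 times was 0, with EGF+DEX against EGF over 5 times 0, with EGF against DEX early 1 and with EGF+DEX against EGF early 0. With limma's trend and robust settings it was 2 with EGF over 5 times, 2 with DEX over 5 times, 10 with EGF late, 5 for late minus early with EGF minus DEX and 5 with EGF+DEX minus DEX. With the stricter filter on dim probesets it was 1 with DEX late and 6 in each of the late minus early comparisons. With the mean of probesets it was 0 with EGF over 5 times, 1 for late minus early with EGF+DEX minus DEX and 9 with EGF+DEX over 5 times, where the largest difference of POLR1B was 0.49 in place of -0.50. With the replicate number as a block it was 0 with DEX over 5 times (1 without the block), 8 with EGF late (6), 36 with EGF against DEX late (35), 17 with EGF+DEX against EGF (16), 21 with EGF+DEX against DEX late (21), 23 with EGF against DEX early (21), 15 with EGF+DEX over 5 times (16) and 22 with EGF+DEX against EGF early (21). It was 1 with EGF over 5 times, 3 in each late minus early comparison and 0 in the other 3 comparisons, as without the block.

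Leaving out 1 array at a time gave 0 to 2 with EGF over 5 times, 0 to 1 with DEX over 5 times, 0 to 9 with EGF late, 0 with DEX late, 5 to 36 with EGF against DEX late, 9 to 21 with EGF+DEX against EGF, 0 with EGF+DEX against EGF late, 0 to 21 with EGF+DEX against DEX late, 0 for the late against the early effect of DEX in EGF cells, 12 to 26 with EGF against DEX early, 4 to 22 with EGF+DEX against EGF early, 0 to 5 for late minus early with EGF minus DEX, 0 to 7 with EGF+DEX minus DEX and 2 to 18 with EGF+DEX over 5 times. The largest difference of DKC1 with DEX ranged from -0.62 to 0.29 when 1 array was left out, the last (adjusted p = 0.173) without DEX 240 min replicate 1, since its 240 min value is then missing. Largest differences with EGF+DEX ranged from -0.28 to 0.61 for DKC1, from -0.46 to 0.66 for NOLC1 and from -0.30 to 0.76 for UTP20, each lowest without EGF+DEX 240 min replicate 1, and from -0.50 to 0.52 for TSR1, which was below 0 without that array (-0.36) and without EGF+DEX 40 min replicate 1 (-0.50). The cause of the other changes was not tested. Late values rest on 2 arrays per treatment, taken at different times.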
